A study of Mus musculus with 2 samples.

Results

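Genes for 10 receptors that blood neutrophils use to detect microbes and damage, among the 32285 genes in the files, were described in single-cell RNA sequencing of mouse blood. They were taken by symbol: Tlr2, Tlr4, Tlr13 and Cd14, the C-type lectin receptors Clec4d, Clec4e and Clec4n, the formyl peptide receptors Fpr1 and Fpr2, and Trem1. One library came from old mice (24 months) and one from young mice (2 months), all labelled male, and the labels give no strain, genotype or number of animals. In both, live blood cells positive for CD45, CD11b and Ly6G were sorted after red cell lysis and captured in microwells with the BD Rhapsody system, which tags each mRNA molecule with a cell barcode and a unique molecular identifier (UMI). Because each age has 1 library, no test was possible, and age cannot be told apart from anything else that differed between the 2 libraries. Levels are UMIs summed over cells and scaled to a total of 1000000 UMIs (CPM), which does not correct for gene length, so levels are compared between groups of cells and not between genes. Values in parentheses after a level are 95% exact Poisson intervals, those after a share of cells are exact Clopper-Pearson intervals, and both cover counting error only.

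Toll-like receptors recognise conserved microbial molecules: TLR2 binds bacterial lipoproteins at the cell surface, TLR4 binds lipopolysaccharide with its co-receptor CD14, and mouse TLR13 binds bacterial ribosomal RNA in endosomes. The C-type lectins Dectin-3 (Clec4d), Mincle (Clec4e) and Dectin-2 (Clec4n) bind microbial glycolipids or mannans and signal through the Fc receptor gamma chain, the kinase Syk and the adaptor CARD9. FPR1 and FPR2 are G protein-coupled chemoattractant receptors for formylated bacterial peptides, and TREM1 amplifies Toll-like receptor signals through the adaptor DAP12. In mouse neutrophils, granule protein transcripts such as Camp, Ltf and Ngp are made in the bone marrow and fade as the cells mature.

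The old library held 14334 barcodes with a median of 7266 UMIs, and the young library held 13599 barcodes with a median of 4246 UMIs. The libraries shared 53 barcode sequences. After filtering, 13517 old and 12921 young cells remained, of which 9023 old and 9919 young cells fell into 5 clusters named neutrophil-like. All 10 markers of the neutrophil list, among them Csf3r, Cxcr2 and Ly6g, stood at 20 CPM or more in the neutrophil-like cells of each library. Different clusters held most of these cells in each library: clusters 1 and 3 held 4572 and 2617 old cells but 32 and 80 young ones, while cluster 0 held 493 old and 6643 young cells. S100a8 and S100a9 together took 29.4% of neutrophil-like UMIs in the old library and 10.8% in the young one, which lowers the CPM of all other genes more in the old library. Whether the mice were male, as labelled, could not be settled. Xist, an RNA of female cells, had a UMI in 51.5% of old and 25.6% of young cells, at 214 CPM in old and 168 CPM in young. Of 4 genes of the Y chromosome, Ddx3y had 964 UMIs in old and 1322 in young cells, Uty 3 in old and 14 in young, Kdm5d 5 in old and 0 in young, and Eif2s3y 0 in both. Of the receptors, Tlr13 lies on the X chromosome, and whether sex bears on its level was not tested.

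Several of these genes are neighbours in the genome. In the GENCODE annotation of GRCm38 (mm10), Clec4n (chr6:123229843-123247021, plus strand), Clec4d (chr6:123262111-123275265, plus strand) and Clec4e (chr6:123281789-123289870, minus strand) stand side by side on chromosome 6, with 15090 bases between Clec4n and Clec4d and 6524 between Clec4d and Clec4e. Fpr1 (chr17:17876471-17883940, minus strand) and Fpr2 (chr17:17887824-17893952, plus strand) face away from each other on chromosome 17, with 3884 bases between their starts. Trem1 lies on chromosome 17 as well (chr17:48232768-48246924, plus strand), Tlr2 on chromosome 3 (chr3:83836272-83841767, minus strand), Tlr4 on chromosome 4 (chr4:66827584-66930284, plus strand), Tlr13 on chromosome X (chrX:106143204-106160493, plus strand) and Cd14 on chromosome 18 (chr18:36725067-36726798, minus strand). All 10 are protein-coding genes.

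Reads of some members may be split with near copies. Of the stretches of 50 bases in the longest annotated transcript, 37.2% of those of Fpr2 also occurred in other genes (Gm5966, Fpr3 and Fpr1), and Fpr3 overlaps Fpr2 on the same strand, so the levels of Fpr2 and Fpr3 are uncertain. The share was 0.81% for Clec4n, 0.078% for Fpr1 and 0 for the other members.

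Promoter windows from 250 bases before to 50 after the start are shown for these neighbouring pairs, because Clec4d and Clec4e, and Fpr1 and Fpr2, differed from each other in the comparisons that follow. The sequences are RefSeq's on GRCm38.p6, whose table matched 7 of the 10 members, all but Tlr4, Cd14 and Clec4n. Capitals mark GAGGAA, a core bound by ETS factors such as the myeloid factor PU.1, or its reverse complement TTCCTC.
Clec4d (GRCm38.p6, chr6:123261857-123262156, plus strand): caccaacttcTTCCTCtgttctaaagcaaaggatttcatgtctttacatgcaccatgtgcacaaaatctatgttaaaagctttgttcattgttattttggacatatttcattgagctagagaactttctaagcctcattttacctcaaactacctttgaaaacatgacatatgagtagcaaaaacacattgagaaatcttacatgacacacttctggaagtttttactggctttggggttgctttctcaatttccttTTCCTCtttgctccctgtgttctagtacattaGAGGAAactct
Clec4e (GRCm38.p6, chr6:123289822-123290121, minus strand): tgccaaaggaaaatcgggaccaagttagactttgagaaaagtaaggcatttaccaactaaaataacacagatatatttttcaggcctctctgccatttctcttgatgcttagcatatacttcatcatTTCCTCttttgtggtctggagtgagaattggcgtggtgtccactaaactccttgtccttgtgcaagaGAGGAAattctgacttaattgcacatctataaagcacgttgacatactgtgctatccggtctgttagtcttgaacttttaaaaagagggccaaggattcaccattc
Fpr1 (GRCm38.p6, chr17:17883890-17884189, minus strand): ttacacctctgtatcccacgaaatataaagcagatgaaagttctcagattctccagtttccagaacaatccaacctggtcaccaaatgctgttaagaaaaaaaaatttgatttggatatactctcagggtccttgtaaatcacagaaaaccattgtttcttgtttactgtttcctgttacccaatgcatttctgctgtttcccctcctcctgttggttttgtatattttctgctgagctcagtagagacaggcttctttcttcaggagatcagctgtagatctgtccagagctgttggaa
Fpr2 (GRCm38.p6, chr17:17887574-17887873, plus strand): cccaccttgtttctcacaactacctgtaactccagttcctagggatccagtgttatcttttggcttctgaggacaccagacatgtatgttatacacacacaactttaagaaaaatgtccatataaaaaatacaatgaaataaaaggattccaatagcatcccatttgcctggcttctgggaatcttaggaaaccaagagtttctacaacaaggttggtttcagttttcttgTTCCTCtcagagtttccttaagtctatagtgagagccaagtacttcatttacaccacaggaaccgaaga
GAGGAA occurred on either strand in 28.3% of all 32851 promoter windows and in 5 of the 7 member windows: Tlr13, Clec4d, Clec4e, Fpr2 and Trem1. Of the windows shown, Clec4d held 3 matches, Clec4e 2, Fpr2 1 and Fpr1 none. The C/EBP-type motif TTGCNNAA occurred in 10.8% of all windows and in those of Tlr13 and Clec4e. The AP-1 motif TGANTCA, in 7.81% of all windows, and an NF-kB-type motif, in 4.59%, occurred in none of the 7. Both strands were searched each time, and matches of different motifs overlapped in 0 cases in the member windows. A match is a description of these letters and not a sign of binding.

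Which cell class carried the receptors was asked first. In the young library all 10 had their highest level in neutrophil-like cells. In the old library 8 did, and Tlr13 and Clec4n were highest in non-classical monocyte-like cells, the patrolling monocytes of blood. Clusters of other classes contained cells with neutrophil transcripts. Cells with at least 0.5% of UMIs from 8 neutrophil markers made up 14.9% of old and 5.58% of young classical monocyte-like cells, and 28.4% of old and 15.9% of young non-classical ones. They were left out of the levels given here for classes other than neutrophil-like, a choice made after the data were seen. Against the remaining non-classical monocyte-like cells of the old library, 8 members were higher in neutrophil-like cells by 1.5-fold or more, where 11.5% of all measured genes were, and 1, Clec4n, was lower, where 67.7% of genes were. Among young cells 9 were higher (18.2% of genes) and none was lower (52.6% of genes). Against classical monocyte-like cells of the old library 8 were higher (12.5% of genes) and Clec4n was lower (63.5% of genes). The old Clec4n ratio of neutrophil-like over monocyte-like cells, with 1 CPM added, was 0.610 for classical and 0.603 for non-classical ones. Without neutrophil-marked cells the old monocyte classes were thus nearly alike in Clec4n. In the young library all 10 were higher (20.8% of genes) and none was lower (51.5% of genes). Members were chosen as neutrophil receptors, so the direction of these counts follows from the choice.

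**Figure D1:**
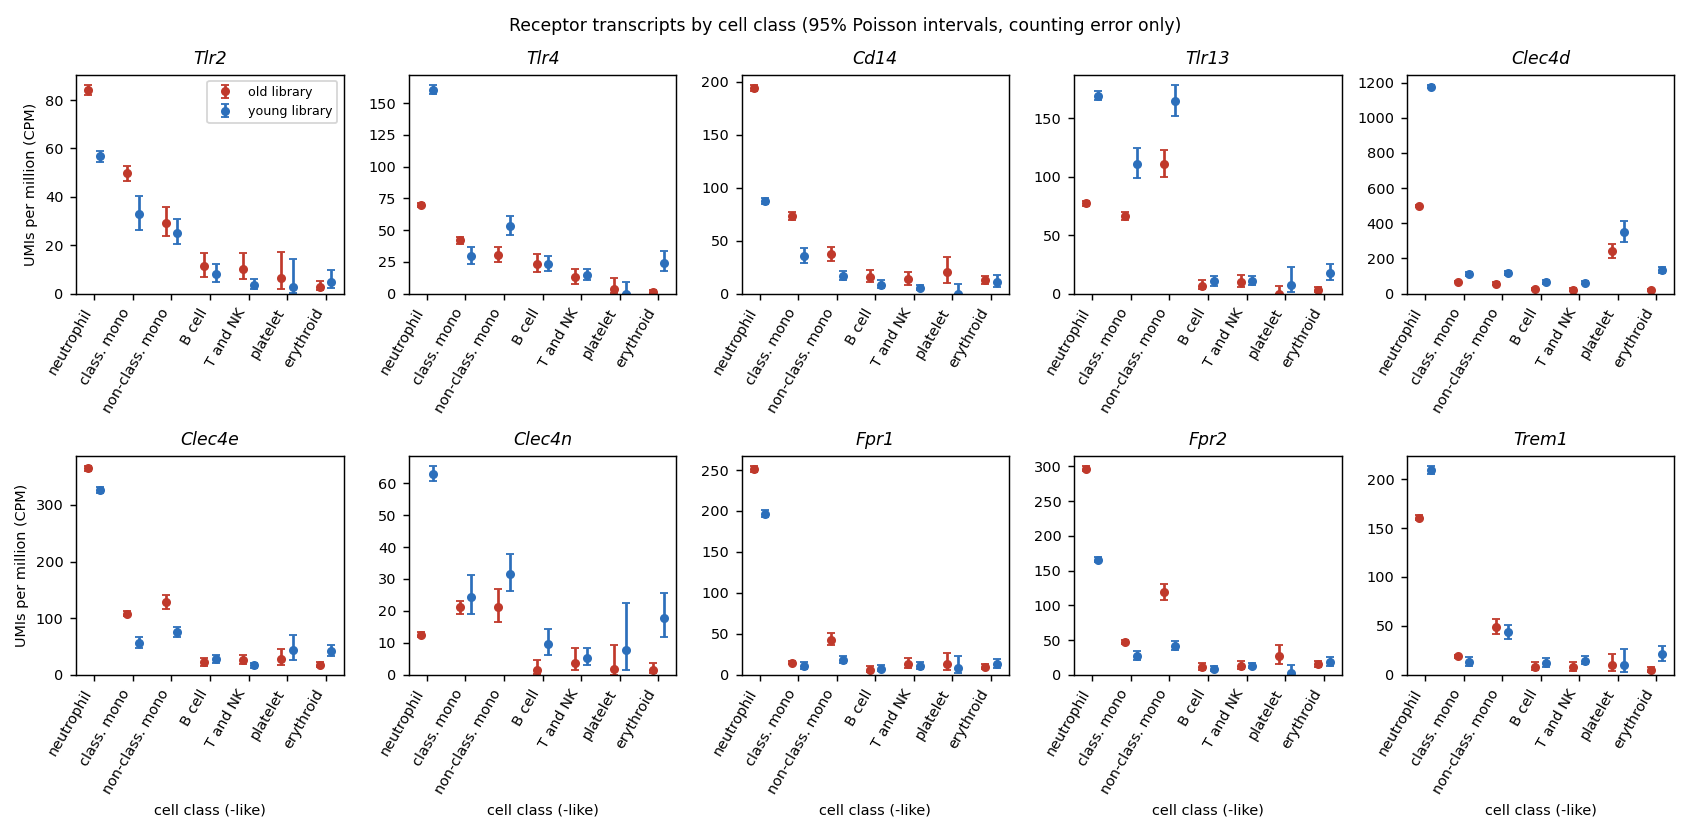
Level of each receptor (vertical axis, CPM) by cell class (horizontal axis) in the old (red) and young (blue) libraries, with 95% exact Poisson intervals; classes other than neutrophil-like are without neutrophil-marked cells. The neutrophil-like points are highest in most panels, while Tlr13 reaches 111 CPM in old and 165 CPM in young non-classical monocyte-like cells, and Clec4d stands out in platelet-like cells at 240.4 CPM (old) and 348 CPM (young).

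Fpr1 and Trem1 were low in monocyte-like cells and Tlr13 was not. Fpr1 stood at 251 (248 to 255) CPM in old and 197 (193 to 201) CPM in young neutrophil-like cells, but at 14.5 CPM in old and 11.0 CPM in young classical monocyte-like cells, and at 42.8 CPM in old and 18.0 CPM in young non-classical ones. Trem1 had 161 (158 to 163) CPM in old and 209 (205 to 213) CPM in young neutrophil-like cells, against 18.7 CPM in old and 13.2 CPM in young classical monocyte-like cells, and 48.6 CPM in old and 43.3 CPM in young non-classical ones. Both were higher in non-classical than in classical monocyte-like cells. So was the share of UMIs from S100a8 and S100a9, at 3.45% against 1.37% in old and 0.615% against 0.516% in young. Whether leftover neutrophil RNA bears on this order was not tested. Tlr13 reached 111 (99.5 to 123) CPM in old and 165 (152 to 178) CPM in young non-classical monocyte-like cells, above the 77.1 (75.2 to 79.1) CPM of old neutrophil-like cells and with an interval that overlapped the 169 (165 to 173) CPM of young ones. Clec4n stood at 21.4 (16.7 to 27.0) CPM in old and 31.7 (26.3 to 37.9) CPM in young non-classical monocyte-like cells, where old neutrophil-like cells had 12.5 (11.7 to 13.3) CPM and young ones 63.0 (60.7 to 65.4) CPM. Cd14, used as a monocyte marker in human blood, was in both libraries lower in classical monocyte-like cells, at 72.9 (69.3 to 76.7) CPM in old and 35.5 (28.8 to 43.3) CPM in young, than in neutrophil-like cells, at 194 (191 to 197) CPM in old and 87.0 (84.3 to 89.8) CPM in young.

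Clec4d had a further site. In platelet-like cells without neutrophil-marked cells it stood at 240.4 (203 to 283) CPM in the old library (145 UMIs in 448 cells) and 348 (292 to 412) CPM in the young one (136 UMIs in 335 cells). These were 48.2% of the old and 29.6% of the young neutrophil-like level. The other 9 members were at 0 to 13.3% of their neutrophil-like level there. S100a8, a neutrophil gene not used to mark cells, was at 4.05% of it in the old library and 3.14% in the young one. Platelet-like cells were shallow, with a median of 912 UMIs in old and 829 UMIs in young. In B cell-like cells, which serve as the background, Clec4d was at 5.10% of the neutrophil-like level in old and 5.65% in young, again without neutrophil-marked cells. A Clec4d UMI was found in 23.4% (204 cells with 1000 UMIs or more gave 20.6% after thinning) of old and 27.2% (128 such cells gave 32.0%) of young platelet-like cells. In B cell-like cells the shares were 15.3% in old and 17.3% in young, and 3.96% in old and 4.34% in young after thinning. The source of the Clec4d UMIs in platelet-like cells was not tested.

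The background of free RNA bears on every low level. All 10 members were higher in neutrophil-like than in B cell-like cells, by 2.59 to 8.21 times in the old and 4.32 to 8.37 times in the young library when no cell was left out. Clec4d had a UMI in 91.8% of old and 95.8% of young neutrophil-like cells, at median depths of 7447 and 4074 UMIs, while 27.3% of old and 26.8% of young B cell-like cells had one, at median depths of 8614 and 6393 UMIs. After thinning (drawing 1000 UMIs from each cell and leaving out shallower cells), which left out 45 old and 59 young neutrophil-like cells, the Clec4d shares were 43.9% in old and 66.0% in young neutrophil-like cells, and 9.50% in old and 8.85% in young B cell-like cells. Clec4n had a UMI in 7.40% of old and 16.1% of young neutrophil-like cells, and in 1.65% of old and 4.07% of young B cell-like cells. Thinned, its shares in neutrophil-like cells were 1.79% in old and 6.15% in young. Tlr4 kept 37.3% (old) and 21.8% (young) of its neutrophil-like UMIs per cell in B cell-like cells without neutrophil-marked cells, where S100a8 kept 3.75% and 4.62%. In old T and NK cell-like cells, likewise without neutrophil-marked cells, Tlr4 kept 18.7% and S100a8 2.96%, and Clec4n kept 31.4% from 6 UMIs. Whether the Tlr4 UMIs of B cell-like cells are free RNA or their own was not tested, so they are not a background for Tlr4.

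The series was made to describe neutrophils in aging, and the comparison it allows is old against young. Across all neutrophil-like cells 2 of the 10 receptors were higher in the old library by 1.5-fold or more, Cd14 and Fpr2, where 7.56% of the 7181 genes measured at 5 CPM or more were. Another 4 were lower, Tlr4, Tlr13, Clec4d and Clec4n, where 50.7% of genes were, and Tlr2, Clec4e, Fpr1 and Trem1 lay within 1.5-fold. The share of lower members, 4 of 10, is near the background. Ratios of old over young are given as log2, after adding 1 CPM to either level. They had a median of -0.11 over the members and -0.60 over all measured genes. The median gene at 50 CPM or more lay at -0.68. Relative to it, 5 members were higher (23.7% of genes) and 1, Clec4n, was lower (12.4% of genes).

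**Figure D2:**
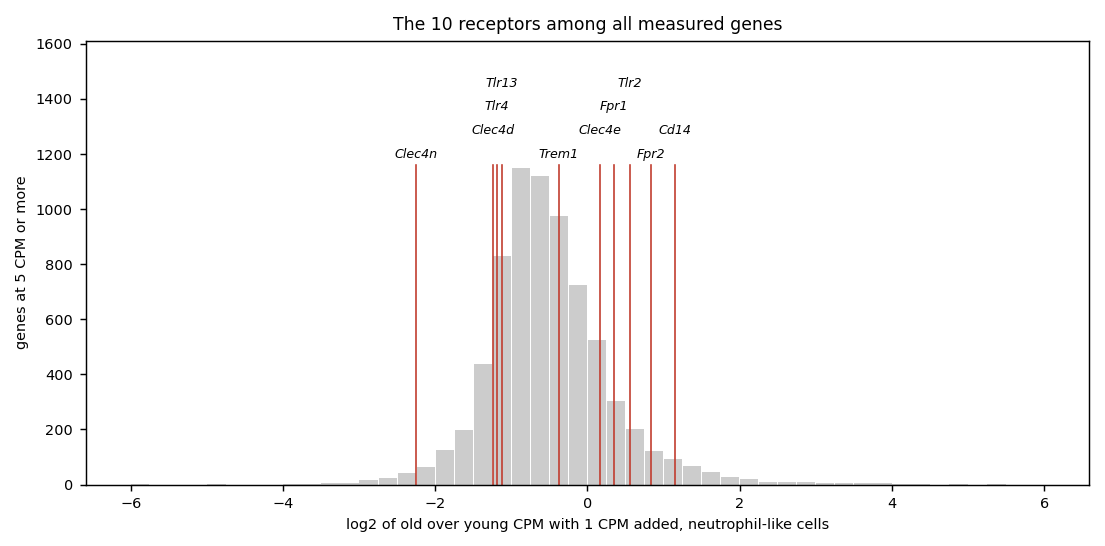
Number of genes at 5 CPM or more (vertical axis) by the log2 ratio of old over young CPM in neutrophil-like cells (horizontal axis), with the 10 receptors as red lines. Most genes lie below 0, Clec4n lies at -2.25, and Cd14 lies furthest to the right of the receptors at 1.15.

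Among the Toll-like receptors and their co-receptor, Cd14 and Tlr4 moved apart. Cd14 had 194 (191 to 197) CPM in old and 87.0 (84.3 to 89.8) CPM in young neutrophil-like cells, a log2 ratio of 1.15. Tlr4 had 69.9 (68.0 to 71.7) CPM in old and 161 (157 to 164) CPM in young cells, a log2 ratio of -1.19. The intervals of the libraries did not overlap for either gene, with the old library high for Cd14 and low for Tlr4. In UMIs per cell Cd14 stood at 1.69 in old and 0.39 in young cells, whereas Tlr4 stood at 0.611 in old and 0.721 in young cells, which were read less deeply. Tlr2 had 84.2 (82.2 to 86.3) CPM in old and 56.8 (54.6 to 59.1) CPM in young cells, a log2 ratio of 0.56. Tlr13 had 77.1 (75.2 to 79.1) CPM in old and 169 (165 to 173) CPM in young cells, a log2 ratio of -1.12. Ly96, which encodes the MD-2 subunit that completes the TLR4 complex, had 30.3 CPM in old and 41.6 CPM in young cells, a log2 ratio of -0.44.

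The clustered lectin genes differed in their ratios. Clec4d had 499 (494 to 504) CPM in old and 1177 (1167 to 1187) CPM in young neutrophil-like cells, a log2 ratio of -1.24. Its neighbour Clec4e had 365 (361 to 369) CPM in old and 327 (321 to 332) CPM in young cells, a log2 ratio of 0.16. Clec4n had 12.5 (11.7 to 13.3) CPM in old and 63.0 (60.7 to 65.4) CPM in young cells, a log2 ratio of -2.25, the lowest of the 10. Intervals did not overlap for any of the 3, and the old library was low for Clec4d and Clec4n and slightly high for Clec4e.

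Of the formyl peptide receptors, Fpr2 had 297 (293 to 300.4) CPM in old and 166 (162 to 170) CPM in young neutrophil-like cells, a log2 ratio of 0.84. Fpr1 had 251 (248 to 255) CPM in old and 197 (193 to 201) CPM in young cells, a log2 ratio of 0.35. Fpr3, which shares sequence with Fpr2, had 11.3 CPM in old and 46.2 CPM in young cells, a log2 ratio of -1.94. Trem1 had 161 (158 to 163) CPM in old and 209 (205 to 213) CPM in young cells, a log2 ratio of -0.38. Intervals of the libraries were separate for each of these genes, with the old library high for Fpr1 and Fpr2 and low for Fpr3 and Trem1.

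The libraries differed in neutrophil maturity, and the receptors differed with it. Maturity was taken as the share of a cell's UMIs from Camp, Ltf and Ngp, none of them a member. Granule-high cells, with 2% or more, numbered 1165 in the old library and 54 in the young one. Intermediate cells, from 0.5% to 2%, numbered 849 old and 41 young, and granule-low cells, under 0.5%, numbered 7009 old and 9824 young. These ranges are cut from a continuous score: 230 old and 5 young cells lay within 20% of the 2% limit, and 284 old and 13 young within 20% of the 0.5% limit. In the old library 9 members were lower in granule-high than in granule-low cells by 1.5-fold or more, where 34.2% of genes were, and 1, Fpr2, was higher, where 12.4% of genes were. Among young cells 7 members were lower (46.9% of genes) and again Fpr2 alone was higher (16.6% of genes). These counts are on the plain CPM scale. Relative to the median gene, Fpr1 was higher in young granule-high cells too, at a log2 ratio of 0.76, and Trem1, at -0.578, lay within 1.5-fold. In the old library Fpr1, at -0.19 on that scale, lay within 1.5-fold. The members' median log2 ratio of granule-high over granule-low was -1.42 in old and -1.40 in young, where that of all measured genes was -0.30 in old and -0.50 in young.

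**Figure D3:**
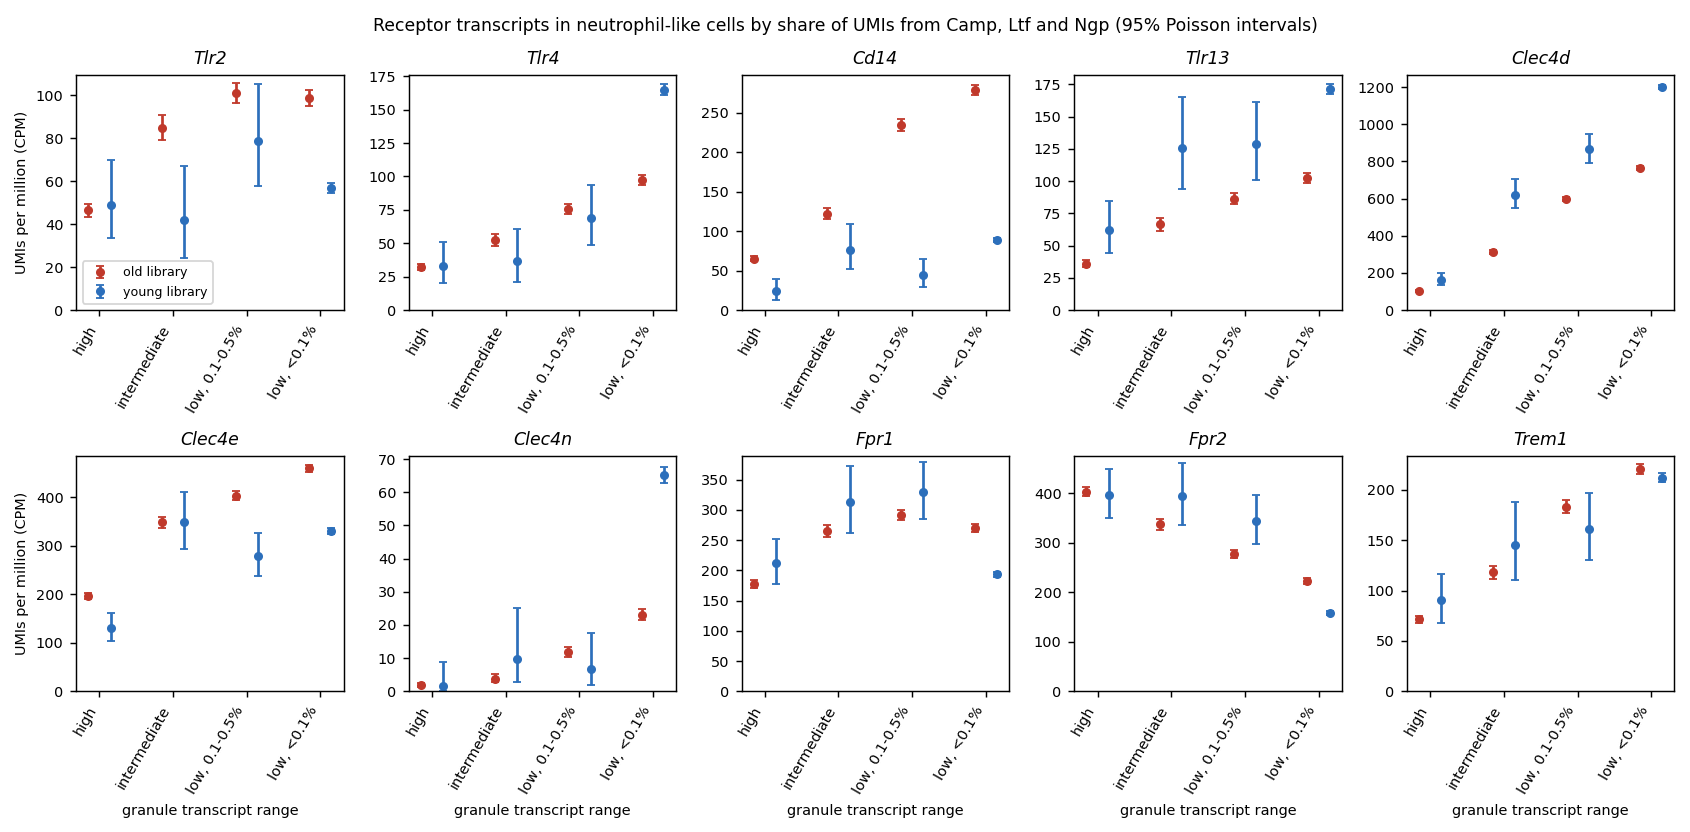
Level of each receptor in neutrophil-like cells (vertical axis, CPM) by share of UMIs from Camp, Ltf and Ngp, from high to low (horizontal axis), in the old (red) and young (blue) libraries with 95% exact Poisson intervals. Clec4d climbs from 104 CPM in granule-high to 765 CPM in the lowest range of the old library, and Fpr2 runs the other way, from 404 to 223 CPM.

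Clec4d and Clec4n had the widest ranges with maturity. Clec4d stood at 104 (99.1 to 108) CPM in granule-high, 313 CPM in intermediate and 701 (693 to 708) CPM in granule-low cells of the old library. In the young library it stood at 163 (133 to 198) CPM, 621 CPM and 1197 (1187 to 1207) CPM over the same ranges. The granule-high level was 6.77 times lower than the granule-low level in old and 7.34 times lower in young. Clec4n stood at 1.77 (1.23 to 2.46) CPM in old granule-high and 18.7 CPM in old granule-low cells. In young granule-high cells it had 1 UMI, and the log2 ratio of granule-high over granule-low there was -4.66 with a counting interval of -10.65 to -2.87 for the ratio without the added CPM.

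Fpr2 ran the opposite way to the lectins with maturity. It stood at 404 (395 to 412) CPM in granule-high, 338 CPM in intermediate and 244 (240 to 248) CPM in granule-low cells of the old library. In the young library it stood at 397 (350 to 450) CPM, 395 CPM and 160.3 (157 to 164) CPM over the same ranges. Fpr1 stood at 177 (172 to 183), 266 and 278 (274 to 283) CPM over these ranges in the old library, and at 212 (178 to 251), 313 and 196 (191 to 200) CPM in the young one. In both libraries Fpr1 was thus lower in granule-high than in intermediate cells, and in the young library its granule-high and granule-low intervals overlapped. Fpr3 had 17.7 CPM in old and 83.9 CPM in young granule-high cells. Granule-high cells held more UMIs, with a median of 16047 in old and 11483 in young, than granule-low cells, with 6508 in old and 4063 in young. Per cell, old granule-high cells had 6.87 Fpr2 UMIs and old granule-low cells 1.69. Some members that were lower by CPM in old granule-high cells were higher there per cell. These were Fpr1 (3.02 against 1.93), Tlr2 (0.790 against 0.689) and Clec4e (3.33 against 3.03). Tlr4, Cd14, Tlr13, Clec4d, Clec4n and Trem1 were lower per cell too. In the young library Clec4e (1.52 against 1.46) and Trem1 (1.06 against 0.935), lower by CPM, were higher per cell.

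The other members apart from Fpr1 were lower in granule-high cells of the old library by 2.14 times or more. Cd14 stood at 65.3 (61.8 to 69.0) CPM in granule-high and 262 (257 to 266) CPM in granule-low cells of the old library, and at 23.7 (13.3 to 39.2) CPM and 88.0 (85.2 to 90.8) CPM in the young one. Tlr4 stood at 32.1 and 89.1 CPM in the old and at 33.2 and 164 CPM in the young library. Trem1 stood at 71.4 and 206 CPM in the old and at 90.2 and 211 CPM in the young library. Tlr2 was likewise lower in the old library, at 46.4 (43.5 to 49.5) CPM in granule-high and 99.5 (96.8 to 102) CPM in granule-low cells. In the young library its intervals overlapped, at 49.1 (33.3 to 69.7) CPM and 57.1 (54.8 to 59.3) CPM.

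Within one range of maturity, old and young differed less for some receptors and more for others than over all neutrophil-like cells. The granule-low cells were not alike in the 2 libraries. Their median granule share was 0.0731% in old and 0 in young. S100a8 and S100a9 took 25.1% of their UMIs in old and 10.3% in young, and their median gene lay at -0.54. Relative to it, 5 members were higher and 1 was lower in old granule-low cells. In granule-low cells the log2 ratio was 1.56 for Cd14, 0.79 for Tlr2, 0.51 for Fpr1 and 0.41 for Clec4e, each larger than over all neutrophil-like cells. In granule-high cells 2 of the 9 members measured there were higher in old, Cd14 and Clec4e (8.41% of genes), and 2 were lower, Tlr13 and Clec4d (29.8% of genes). Fpr2 stood at 404 CPM in old and 397 CPM in young granule-high cells, and Tlr4 at 32.1 CPM in old and 33.2 CPM in young, with overlapping intervals for both. In intermediate cells 2 members were higher in old, Tlr2 and Cd14 (12% of genes), and 3 were lower, Tlr13, Clec4d and Clec4n (35.7% of genes). The interval of the Clec4n ratio there, -2.84 to 0.57, included 0, as young intermediate cells number 41. In granule-low cells 3 were higher in old, Tlr2, Cd14 and Fpr2 (5.96% of genes), and 4 were lower, Tlr4, Tlr13, Clec4d and Clec4n (44.2% of genes). The log2 ratio of Cd14 was 1.42 in granule-high, 0.67 in intermediate and 1.56 in granule-low cells. That of Tlr4 was -0.05, 0.49 and -0.87 over the same ranges, so among the 3 ranges it passed 1.5-fold in granule-low cells only. The difference between the ranges was not tested.

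**Figure D4:**
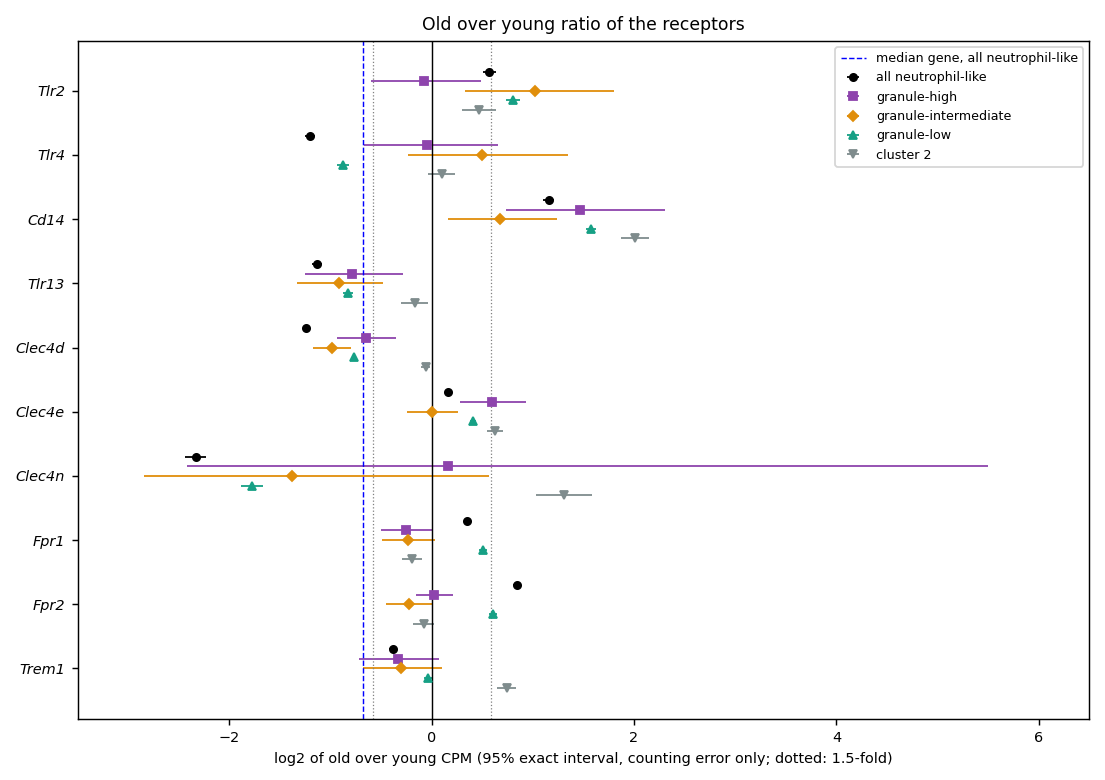
Log2 ratio of old over young CPM (horizontal axis, without added CPM) for each receptor (rows) in all neutrophil-like cells, the 3 maturity ranges and cluster 2, with 95% exact intervals for counting error. Cd14 lies right of 0 in every group of cells drawn, whereas Clec4n lies at -2.25 with 1 CPM added over all neutrophil-like cells and at 1.27 in cluster 2.

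Clusters that held many cells of both libraries gave another view of age, chosen after the data were seen. Cluster 2, with 1192 old and 1854 young cells, had a like share of UMIs from S100a8 and S100a9 in both, 17.0% in old and 17.1% in young, and a median gene at -0.09 on the log2 scale. In it 4 receptors were higher in old (6.16% of genes) and none was lower (8.47% of genes). Cd14 had 276 (261 to 291) CPM in old and 68.5 (63.3 to 74.0) CPM in young cells of cluster 2, a log2 ratio of 1.99. Clec4n had 50.8 (44.7 to 57.4) CPM in old and 20.5 (17.7 to 23.6) CPM in young, the reverse of its order over all neutrophil-like cells. Trem1 had 359 CPM in old and 215 CPM in young, and Clec4e 509 CPM in old and 331 CPM in young. Clec4d had 1171 CPM in old and 1220.5 CPM in young, and Tlr4 139 CPM in old and 130 CPM in young, both within 1.5-fold.

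The cells of cluster 2 were not alike in the 2 libraries. At a finer resolution, 754 of its old cells but 62 of its young cells fell into one cluster, and 308 old and 1578 young cells fell into another, cluster 3 of that clustering. The inflammatory chemokine gene Cxcl2 had 298 CPM in old and 46.2 CPM in young cells of cluster 2, and the cytokine gene Il1b had 5306 CPM in old and 2278 CPM in young. These genes were chosen after their values were seen, and their part in the receptor ratios was not tested. In cluster 3 of the finer clustering, with 352 old and 2343 young cells, Cxcl2 stood at 42.8 CPM in old and 27.2 CPM in young cells. Il1b differed there too, at 4356 CPM in old and 2269.9 CPM in young, a log2 ratio of 0.94, where it was 1.22 in cluster 2. In that finer cluster Cd14 had 186 (164 to 210) CPM in old and 63.7 (59.1 to 68.5) CPM in young. The log2 ratio of Clec4n there was 0.91 (0.48 to 1.38). Clec4e had 486 CPM in old and 322 CPM in young, and Trem1 294 CPM in old and 208 CPM in young, a log2 ratio of 0.50 that lay within 1.5-fold. In cluster 0, with 493 old and 6643 young cells, Clec4d was nearly equal, at 1185 CPM in old and 1182 CPM in young. Cd14 stood there at 262 CPM in old and 96.2 CPM in young, and Clec4n at 127 CPM in old and 81.6 CPM in young. So Clec4n, lower in old over all neutrophil-like cells, was higher in old within clusters 2 and 0. It was also higher in cluster 3 of the finer clustering, most of whose cells belong to cluster 2. It was not in cluster 5, with 149 old and 1310 young cells, where its log2 ratio was -0.32 (-0.96 to 0.26). Clusters 1 and 3, which held 80 young cells or fewer, gave Clec4n intervals that included 0. The log2 ratio of Cd14 was 1.44 to 2.09 in the 5 neutrophil-like clusters.

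Monocyte-like cells gave the same order of old and young as neutrophil-like cells for some receptors and not for others. Without neutrophil-marked cells, 3 members were higher in old classical monocyte-like cells, Cd14, Clec4e and Fpr2 (6.04% of genes), 2 were lower, Tlr13 and Clec4d (11.7% of genes), and 5 lay within 1.5-fold. In non-classical ones 4 were higher, Cd14, Clec4e, Fpr1 and Fpr2 (4.9% of genes), 2 were lower, Tlr4 and Clec4d (7.53% of genes), and 4 lay within. Transcripts of the neutrophil list remained in these cells, more so in old. S100a8 and S100a9 took 3.45% of UMIs in old and 0.615% in young non-classical cells. In classical cells they took 1.37% in old and 0.516% in young. How far leftover neutrophil RNA adds to these ratios was not tested. Trem1, at 161 CPM in old and 209 CPM in young neutrophil-like cells, had the other order in monocyte-like cells: 18.7 CPM in old and 13.2 CPM in young classical cells, and 48.6 CPM in old and 43.3 CPM in young non-classical ones, within 1.5-fold in both. Tlr4, lower in old neutrophil-like cells, had 41.9 CPM in old and 29.6 CPM in young classical monocyte-like cells. Cd14 had 72.9 (69.3 to 76.7) CPM in old and 35.5 (28.8 to 43.3) CPM in young classical monocyte-like cells, and 37.0 (30.7 to 44.2) CPM in old and 16.6 (12.8 to 21.3) CPM in young non-classical ones. Clec4e had 108 (104 to 113) CPM in old and 56.3 (47.8 to 66.0) CPM in young classical monocyte-like cells. Tlr13 had 66.3 (62.8 to 69.9) CPM in old and 111 (98.7 to 124) CPM in young classical cells. In non-classical cells it was also lower in old, but within 1.5-fold. Fpr2 had 118 (107 to 131) CPM in old and 41.2 (35.0 to 48.2) CPM in young non-classical cells. The Cd14 background moved too: B cell-like cells had 15.8 (10.7 to 22.4) CPM in old and 8.37 (5.18 to 12.8) CPM in young, and how far it adds to the monocyte-like levels was not tested. The 197 young classical monocyte-like cells were also richer in dendritic cell markers, with a summed level of 5309 CPM over the 11 markers, against 1402 CPM in the 1335 old ones.

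Profiles over 17 groups of cells, which are the classes and maturity ranges of each library with 50 cells or more, placed each receptor beside other genes. These profiles share libraries and depth, so the correlations of log2 levels are descriptions. Unlike the levels above, the profiles of the other classes kept their neutrophil-marked cells. How far the neutrophil transcripts in those cells add to the correlations was not tested. Fpr1 and Fpr2 were the most alike pair of members, at a Pearson r of 0.94, and Clec4n and Fpr2 the least, at -0.25. Tlr2 and Cd14 reached 0.88, while Tlr4 and Cd14 reached 0.41. Among 8973 genes the nearest to Fpr1 were Chil1 and the gelatinase gene Mmp9, each at 0.98, and Rnd1 at 0.97. The nearest to Fpr2 were B230208H11Rik at 0.98, Padi4 at 0.97, which encodes the histone-citrullinating enzyme of neutrophil extracellular traps, and Pglyrp1 at 0.97. The nearest to Trem1 was C5ar1, the complement C5a receptor gene, at 0.97, then Grina and Hdc, each at 0.96. Tlr13 lay nearest to Fgr, a Src family kinase gene, at 0.98, followed by Cers6 at 0.96 and Sirpa at 0.95. Clec4d lay nearest to Nlrp12 (0.95), Map1lc3b (0.95) and Retn (0.94), and Clec4e to Rnd1, Tarm1 and Lilr4b (0.96 each). Tlr4 lay nearest to Sbno2 (0.96), Neat1 (0.95) and Zfp36 (0.95), and Tlr2 to App, Ctnnbip1 (0.96 each) and Plaur (0.95). Cd14 lay nearest to Tgm1 (0.93), Csf2rb2 (0.90) and Tlr2 (0.88), and Clec4n to Gm15832 (0.94), Sirpb1b (0.93) and Gm5150 (0.91).

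Genes that work beside these receptors were followed in 12 lists with 128 genes in the files, of which 92 were measured in neutrophil-like cells. By 1.5-fold, 8 were higher and 58 lower in old, where 7.56% and 50.7% of all measured genes were. Relative to the median gene, 20 were higher and 22 lower, where 23.7% and 12.4% of all measured genes were. Among other Toll-like receptors, 1 of 5 was higher and 3 lower. Tlr1, the partner of TLR2, had 14.6 CPM in old and 4.32 CPM in young cells, while the endosomal Tlr7 had 7.28 CPM in old and 30.2 CPM in young. Of the co-receptors and chaperones, 1 of 5 was higher and 3 were lower. The lipopolysaccharide-binding protein gene Lbp had 20.4 CPM in old and 4.14 CPM in young cells, but 65.4 CPM in old and 69.7 CPM in young granule-high cells. Unc93b1, the chaperone of endosomal Toll-like receptors, had 88.9 CPM in old and 223 CPM in young cells. Of 13 adaptors and kinases none was higher and 10 were lower, with a median log2 ratio of -0.78, among them Irak2 with 41.7 CPM in old and 108 CPM in young. Relative to the median gene that list had 1 higher and 1 lower. Of 6 inhibitors of Toll-like receptor signals none was higher and 5 were lower, among them Irak3 with 44.7 CPM in old and 84.5 CPM in young. Relative to the median gene, 0 inhibitors were higher and 1 was lower. The other Toll-like receptors, and likewise the co-receptors and chaperones, had 1 higher and 1 lower on that scale.

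On the lectin side, 2 of 7 other myeloid C-type lectin genes were higher in old, Clec12a and Clec4a2, and 4 were lower. Relative to the median gene 3 were higher and 3 lower. The inhibitory receptor gene Clec12a had 123 CPM in old and 69.4 CPM in young cells, and Clec1a had 3.04 CPM in old and 27.4 CPM in young. In granule-high cells Clec12a had 206 CPM in old and 234 CPM in young, and in cluster 2 it had 76.5 and 75.6 CPM. Clec4a2 had 268 CPM in old and 307 CPM in young granule-high cells, and 94.3 and 143 CPM in cluster 2. In granule-low cells both were higher in old, Clec12a at 83.8 against 66.0 CPM and Clec4a2 at 136 against 115 CPM. Of the 14 genes of the Syk and CARD9 pathway none was higher and 9 were lower, with Malt1 at 37.0 CPM in old and 96.5 CPM in young. On the scale relative to the median gene 1 was higher and 1 lower, so most of these lower calls were lost. Fcer1g, the signalling chain of these lectins, was within 1.5-fold at 2036 CPM in old and 1869 CPM in young. The 1 other formyl peptide receptor gene measured, Fpr3, was lower. Of 16 genes of formyl peptide receptor signalling 1 was higher and 5 were lower, with a median log2 ratio of -0.12, where that of all measured genes was -0.60. Relative to the median gene the balance turned round, with 8 higher and 3 lower. The gene higher on the plain scale, Anxa1, whose product is a ligand of formyl peptide receptors, had 2390.0 CPM in old and 898 CPM in young cells. In granule-high cells it had 4152 CPM in old and 2963 CPM in young. In the TREM list 2 of 5 were higher, Pglyrp1 and the platelet gene Treml1, and 1 was lower. Treml1 had 9.72 CPM in old and 3.46 CPM in young cells, and was named after its value was seen. Pglyrp1, a peptidoglycan-recognising granule protein that binds TREM1, had 2419 CPM in old and 1231 CPM in young cells. Of 8 other chemoattractant receptor genes 1 was higher, Ltb4r1 for leukotriene B4, with 236 CPM in old and 73.2 CPM in young, and 7 were lower, among them C5ar2 with 37.4 CPM in old and 165 CPM in young. Of 10 genes of cytosolic recognition none was higher and 9 were lower, with a median log2 ratio of -1.43, among them Nlrp3 with 87.3 CPM in old and 332 CPM in young and Aim2 with 21.0 CPM in old and 95.2 CPM in young. Relative to the median gene the TREM list had 3 higher and 0 lower, the chemoattractant receptors 1 higher and 4 lower, and cytosolic recognition 1 higher and 6 lower. In cluster 2 Nlrp3 had 326 CPM in old and 296 CPM in young, and Anxa1 955 CPM in old and 923 CPM in young. Pglyrp1 had 1546 CPM in old and 1487 CPM in young cells of cluster 2, but 2029 and 1193 CPM in granule-low cells. Ltb4r1 stayed higher in old in cluster 2, at 111 CPM against 70.7 CPM in young. Of 2 scavenger receptor genes measured, none was higher and 1 was lower.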

How the data were processed

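UMI counts per gene and cell barcode were deposited by the authors, not normalized. Cell Ranger 7.2.0 is named per the file headers, and build mm10 per the submitters' processing notes. The annotation release and cell calling are not given in the sources used here. How the 16-base barcodes relate to Rhapsody cell labels is not given either. The members and lists were chosen with earlier results of these data known. Barcodes under 200 genes or over 20% mitochondrial UMIs (817 old, 678 young) were dropped.

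Each cell was scaled to 10000 UMIs on a log scale. Both libraries were clustered together without integration in scanpy 1.11.5 (Python 3.11.15, leidenalg 0.10.2, scikit-learn 1.9.0). The steps used 2000 variable genes per library without the 10 members, 30 principal components, 15 neighbours and Leiden resolution 0.6. Clusters were named X-like from 16 marker lists. The limits for naming were set after the data were seen. They were a marker at 20 CPM and 25% of its highest cluster, at least 3 markers, 20 cells and a leading gene at 200 CPM. The neutrophil-like class takes in the immature and the interferon-stimulated lists, T and NK cells were 1 class, and 4 clusters stayed unnamed. No doublet caller was run. Neutrophil-like cells with 0.5% or more of UMIs from T, NK, B, platelet or erythroid markers (422 old, 220 young) were dropped in 1 alternative.

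Levels are sums of UMIs per library and class. A gene was measured at 5 CPM in the mean of both groups and called from 1.5-fold, with 1 CPM added. Intervals of ratios are for the ratio without it. All members are named. From each related list up to 4 genes at 10 CPM or more are named, by size of ratio relative to the median gene. For each member the 3 most alike genes are named. Cxcl2, Il1b and the sex-linked genes stand outside this rule. Other settings tried were cell filters, Leiden resolutions, single clusters, scaling, floors, fold limits, added CPM and limits of maturity. Ratios and intervals were tested on simulated data with numpy 2.4.6 and scipy 1.17.1. The simulated counts held counting error only, without variation between cells or libraries. They check the computation and cannot show whether the intervals cover differences between libraries. With 1 library per age no p-value was computed, and leaving out a replicate was not possible.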

Additional observations from a re-analysis of the deposited data

How the results depend on the processing

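No paired analysis was possible because each age has 1 library. Over 22 alternatives, 202 of 220 receptor ratios kept their direction. Some of this was fixed in advance. A fold limit of 2 and leaving out the floor do not change a ratio, and adding 5 CPM cannot turn its direction. Of the 2 receptors higher and 4 lower in old neutrophil-like cells, the counts became 5 higher and 1 lower relative to the median gene, 4 higher with totals without S100a8 and S100a9, and 1 higher at a fold limit of 2. In cluster 2 alone 4 were higher and 0 lower. In clusters 0 and 5, and in clusters 3 and 2 at Leiden resolution 1.0, 0 were lower. These cluster settings were chosen after seeing the data, and most cells of cluster 3 at resolution 1.0 belong to cluster 2. The cause was not tested. The other 18 ratios turned. Trem1, at -0.38 over all neutrophil-like cells, turned in 7 alternatives: 0.30 relative to the median gene, 0.06 at a granule share under 0.1%, 0.74 in cluster 2, 0.42 in cluster 0, 0.67 in cluster 5, and 0.50 and 0.41 in clusters 3 and 2 at resolution 1.0. Fpr1, at 0.35, turned to -0.19 in cluster 2, -0.10 in cluster 0, -0.01 in cluster 5 and -0.04 in cluster 3 at resolution 1.0. Clec4n turned to 1.27 in cluster 2, 0.63 in cluster 0, and 0.91 and 0.68 in clusters 3 and 2 at resolution 1.0. Tlr4 (0.10) and Fpr2 (-0.0804) turned in cluster 2, and Clec4d (0.00357) in cluster 0. Cd14 kept its direction in all 22, from 1.11 to 1.99, among them the settings that could not turn it. Of related genes, the 8 higher became 20 relative to the median gene, 5 at a floor of 20 CPM and 5 in granule-low cells. The 58 lower became 22 relative to the median gene. Counts by class and maturity stayed within 1.5 times under the alternatives run for them.

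Low levels are limited by depth and free RNA. Young granule-high cells number 54, so 1 UMI decides the Clec4n level there.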
